A study of Mus musculus with 27 samples.

Results

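The genes described here are 9 tumor suppressors, *Nf1*, *Nf2*, *Rb1*, *Lats1*, *Lats2*, *Tsc1*, *Tsc2*, *Atm* and *Brca1*. They were taken by symbol from the probe annotation, out of 19937 genes that had a probe set naming them alone. Each of the 9 was read by 1 probe set.

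RNA of mouse neural cells, of tumors and of subcutaneous tissue was hybridised to Affymetrix arrays, 27 in all, with 1 array per sample. The cell arrays held 6 immortalized neural stem cell lines labelled p53 mutant (lines 3, 28, 31, 59, 95 and 116), 4 immortalized lines labelled WT (lines 119, 120, 123 and 331) and, as 2 WT samples, neural stem cells labelled normal (NSCs). The tissue arrays were 12 tumors, 3 each from line 1 (WT), line 31 (p53 mutant), line 59 (p53 mutant) and line 123 (WT), and 3 samples of subcutaneous tissue (SubQ, WT). The design text sets the lines against the NSCs and the tumors against SubQ.

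The labels give every sample the host background CB17/ICR-Prkdcscid/IcrCrl, a mouse with severe combined immunodeficiency, the cell cultures included. How the lines were immortalized, which p53 mutation they carry and the age of the animals are not given in the sources used here, and the level of *Trp53* was not analysed here. Each line is 1 culture, and the 3 tumors of a line share that line. The labels call replicates biological without naming cultures or animals, so every p-value here rests on sample-to-sample spread, which may be technical. The tumors are bulk tissue that can hold host cells, and fewer cells of a type and less RNA per cell cannot be told apart.

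These suppressors hold back growth at different points. *Nf2* encodes merlin, which activates the Hippo kinases LATS1 and LATS2, and these phosphorylate the coactivators YAP and TAZ and so keep them from TEAD factors and their growth genes. *Nf1* encodes neurofibromin, a GTPase-activating protein that turns RAS off, and *Tsc1* and *Tsc2* encode the complex that turns off RHEB, the activator of mTORC1. *Rb1* encodes the protein that restrains E2F factors at the entry to S phase, and *Atm* and *Brca1* encode a kinase and a repair factor of the response to DNA breaks. Mutations of *Nf1* and *Rb1* occur in human glioma, *Nf2* is lost in schwannoma and meningioma, and *Tsc1* or *Tsc2* mutation underlies the brain lesions of tuberous sclerosis.

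The promoters of *Lats2*, the 1 gene that passed between lines and NSCs, of its paralog *Lats1*, and of *Brca1*, which differed between tumor lines, are shown so that their makeup can be read beside the levels. The sequences are RefSeq's for build GRCm38.p6, lie upstream of the annotated gene and run 5′ to 3′ on the gene's strand. Capitals mark matches, on either strand, to the GC box GGGCGG (bound by SP1 family factors), the CCAAT box (NF-Y) or the motif TGACG (shared by CREB and ATF sites).
Lats2, chr14:57746213-57746373, minus strand: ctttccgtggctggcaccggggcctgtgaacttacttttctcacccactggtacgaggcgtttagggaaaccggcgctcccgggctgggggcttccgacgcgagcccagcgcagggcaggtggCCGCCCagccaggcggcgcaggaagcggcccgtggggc
Lats1, chr10:7680959-7681199, plus strand: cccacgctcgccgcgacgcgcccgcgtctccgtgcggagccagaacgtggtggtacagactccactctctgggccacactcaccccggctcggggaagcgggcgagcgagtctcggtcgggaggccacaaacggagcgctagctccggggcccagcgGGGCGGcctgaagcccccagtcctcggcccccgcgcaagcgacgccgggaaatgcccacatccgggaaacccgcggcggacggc
Brca1, chr11:101551956-101552205, minus strand: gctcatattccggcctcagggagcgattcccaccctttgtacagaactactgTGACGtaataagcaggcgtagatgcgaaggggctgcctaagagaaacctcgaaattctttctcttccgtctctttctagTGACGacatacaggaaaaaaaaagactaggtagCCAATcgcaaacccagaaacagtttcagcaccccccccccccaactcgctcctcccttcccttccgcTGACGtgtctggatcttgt

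A RefSeq promoter window was matched for 8 of the 9 genes (all but *Rb1*), and the 250 bases before the start were searched. The GC box was found in 4 of these 8 genes (*Nf2*, *Lats1*, *Lats2* and *Atm*) and in 32.7% of all 32851 windows. CCAAT was found in 3 of 8 (*Nf2*, *Atm* and *Brca1*) against 33.8% of all windows, and TGACG in 3 of 8 (*Lats2*, *Tsc1* and *Brca1*) against 17.8%. The TEAD core GGAATG was in 0 of 8 and in 12.6% of all windows, and the E2F core TTCCCGC in 0 of 8 and in 3.82%. The TGACG matches of *Lats2* lie outside the printed stretch, and of its 4 GC boxes only 1 lies wholly within it. Motifs were counted separately, also where matches share bases, and a match is a description of the letters, not of binding.

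The arrays fell into a cell set and a tissue set that differed in scale. The 25th percentile of gene means was 6.17 (log2) in the lines, 6.21 in NSCs, 4.75 in tumors and 5.38 in SubQ, and pairs of a cell and a tissue array shared 0 to 1 identical values against 28 to 83 for pairs of cell arrays, so each comparison was fitted within 1 set. The SubQ arrays stood apart: pairs of them correlated at 0.66 to 0.72 over genes against 0.94 to 0.98 for pairs of tumors, their SD over genes was 0.87 to 1.02 against 1.63 to 1.79, and *Actb* read 8.35 to 9.83 against 11.92 to 12.63. In the NSCs the stem cell marker *Fabp7* read 13.15 on average and the glial genes *Slc1a3* and *Aldoc* 11.83 and 11.21. In the lines these 3 read 6.27, 8.42 and 6.94. The stem cell markers *Nes* and *Sox2* read 9.04 and 8.36 in the lines and 9.79 and 9.68 in the NSCs.

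Among the 9 suppressors, *Lats2* had the largest difference between the immortalized lines and the NSCs and was the 1 gene that passed. By limma's moderated test with Benjamini-Hochberg adjustment over all genes, 1 of the 9 passed an adjusted p of 0.05 in the comparison of 10 lines with 2 NSC cultures, in which 15.0% (2992) of all genes passed (6.79% higher and 8.22% lower). Lines and NSCs did not overlap for 4 of the 9 genes, against 21.3% of all genes. The median difference of the 9 was 0.05 on the log2 scale and that of all genes -0.01.

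*Lats2*, the Hippo kinase, read 7.01 and 7.21 in the NSC cultures. In the mutant lines 3, 28, 31, 59, 95 and 116 it read 8.40, 8.70, 8.57, 8.38, 8.17 and 8.62. In the WT lines 119, 120, 123 and 331 it read 8.43, 8.84, 8.47 and 8.22. Every line lay above both NSC cultures, and mutant and WT lines overlapped. The mean of 8.48 ± 0.21 (SD, n = 10) exceeded that of 7.11 ± 0.14 (SD, n = 2) by 1.37 on the log2 scale (SE 0.15, 95% interval 1.04 to 1.70), a 2.59-fold difference with an adjusted p of 3e-05 (limma). The difference was 1.37 for the mutant lines alone and 1.38 for the WT lines alone, and ranged from 1.27 to 1.47 over 23 alternative fits. It passed in 22 of them, the exception being a test against a 2-fold minimum (adjusted p = 0.47).

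*Lats1*, the second LATS kinase, read 10.34 and 10.33 in the NSC cultures and from 10.47 (line 119) through a median of 10.64 to 10.86 (line 31) in the lines. The lines were all above the NSCs, by 0.34 on average (SE 0.11, 95% interval 0.10 to 0.58), with an adjusted p of 0.060 (limma). It passed in 4 of 23 alternative fits, without line 119 (0.36, adjusted p = 0.039), without line 331 (0.36, adjusted p = 0.049), for the 6 mutant lines alone (0.39, adjusted p = 0.040) and with arrays centred on their medians (0.37, adjusted p = 0.049). With the replicate number as a block it was 0.24 (adjusted p = 0.26, limma). *Nf2*, upstream of both kinases, read 8.98 and 8.77 in the NSCs and between 8.15 (line 123) and 9.25 (line 119) in the lines. Its groups overlapped, and its difference was 0.02 (95% interval -0.49 to 0.53).

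*Rb1* read 10.16 and 9.97 in the NSC cultures. The mutant lines 3, 28, 31, 59, 95 and 116 read 9.27, 9.80, 8.77, 9.32, 9.18 and 8.36, and the WT lines 119, 120, 123 and 331 read 9.51, 8.90, 7.63 and 8.61. All 10 lines lay below both NSC cultures, line 28 by the least and line 123 by the most. The mean difference was -1.13 (SE 0.41, 95% interval -2.02 to -0.23), and its adjusted p was 0.093 (limma). It passed in 2 of 23 alternative fits, without line 123 (-0.98, adjusted p = 0.047) and with all 27 arrays in 1 fit (adjusted p = 0.042), and was -0.53 with the replicate number as a block (adjusted p = 0.18, limma). The SD of *Rb1* over the lines, 0.63, was larger than that of 95.5% of genes.

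The pair of the tuberous sclerosis complex gave small values. *Tsc2*, its GTPase-activating subunit, read 8.46 and 8.45 in the NSCs and 8.495 (line 123) to 8.90 (line 28) in the lines, all above, with a difference of 0.24 (SE 0.11, 95% interval 0.01 to 0.48, adjusted p = 0.17, limma). *Tsc1*, the stabilising subunit, differed by 0.05 (95% interval -0.27 to 0.37) with overlapping groups.

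*Nf1*, *Atm* and *Brca1* overlapped between lines and NSCs. The difference of *Nf1* was -0.05 (95% interval -0.36 to 0.26), from 10.64 ± 0.10 (SD, n = 2) in NSCs. That of *Atm* was -0.10 (95% interval -0.49 to 0.29) and that of *Brca1* 0.18 (95% interval -0.38 to 0.74). The intervals leave room for differences of up to these bounds, so equal levels are not shown.

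**Figure D1:**
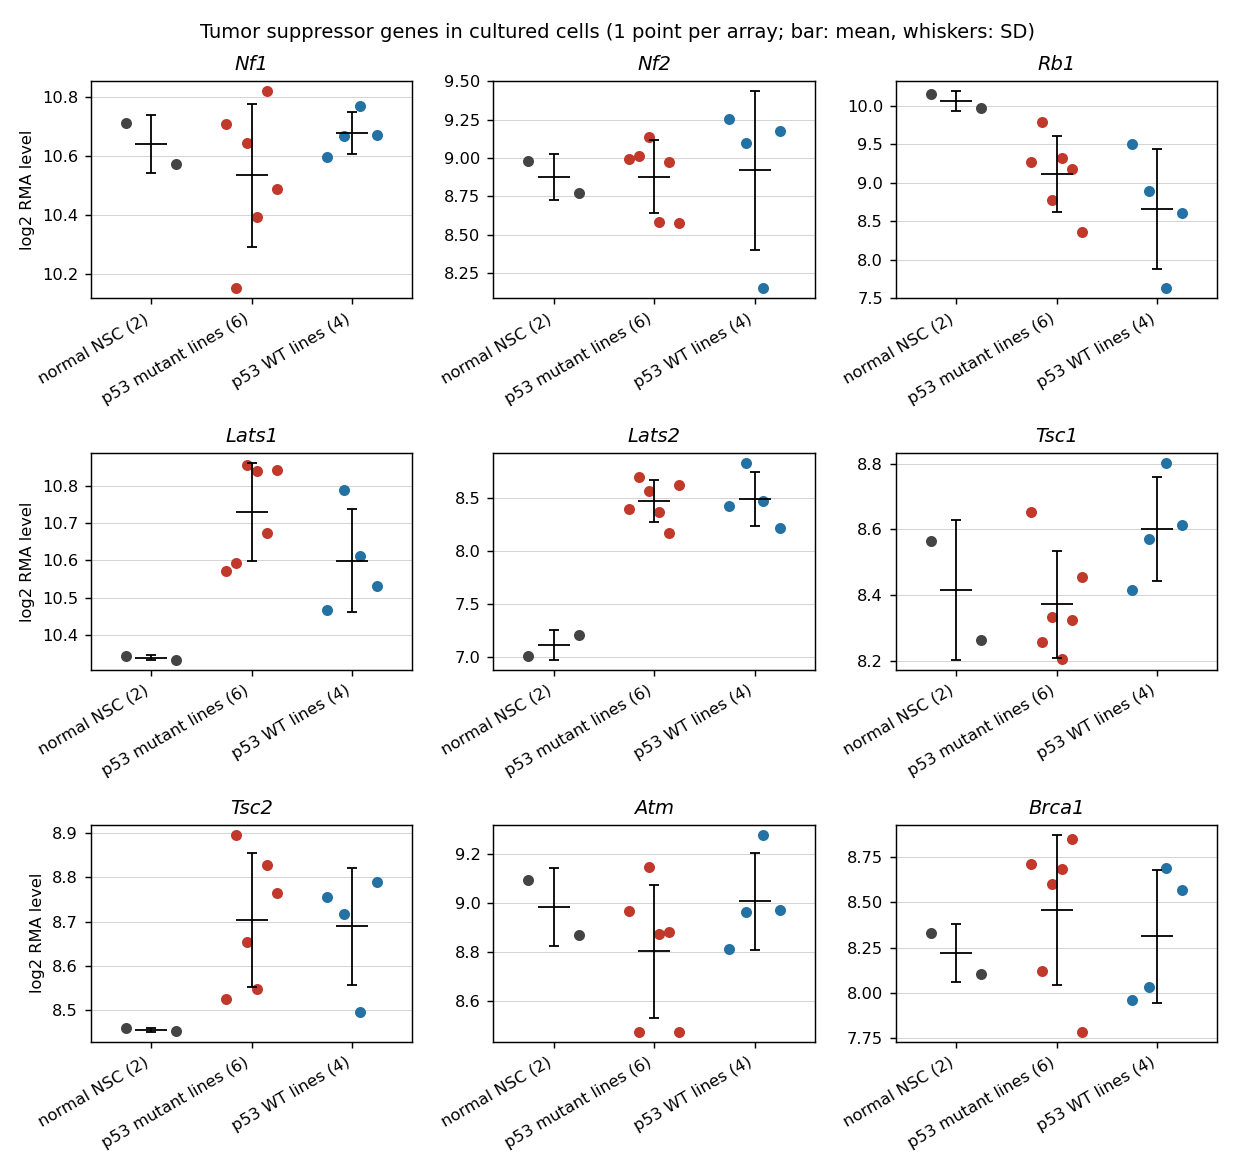
Log2 RMA level (y axis, a separate scale for each gene) of the 9 suppressor genes in the 2 normal NSC cultures, the 6 p53 mutant lines and the 4 p53 WT lines, with 1 point per array, the mean as a bar and the SD as whiskers. All lines lie above the NSCs for Lats2, Lats1 and Tsc2 and below them for Rb1, and the WT line at 7.63 for Rb1 and 8.15 for Nf2 is line 123.

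Between the 6 mutant and the 4 WT lines none of the 9 genes passed (limma, 0 also at an unadjusted p under 0.05, and 0 in all 18 alternative fits), in a comparison where 0.0201% of all genes passed. The groups overlapped for all 9, against 1.69% of all genes that did not overlap. The nearest to the threshold was *Tsc1*, at 8.37 ± 0.16 (SD, n = 6) in mutant and 8.60 ± 0.16 (SD, n = 4) in WT lines, a difference of -0.23 (95% interval -0.46 to 0.00, adjusted p = 0.59, limma). For *Rb1* the interval ran from -0.31 to 1.23 around 0.46, and for *Brca1* from -0.36 to 0.65 around 0.15. *Lats2* differed by -0.02 with an interval of -0.31 to 0.28, so that a difference between genotypes as large as its 1.37 between lines and NSCs lies outside it. The other 5 intervals lay within -0.53 and 0.43.

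**Figure D2:**
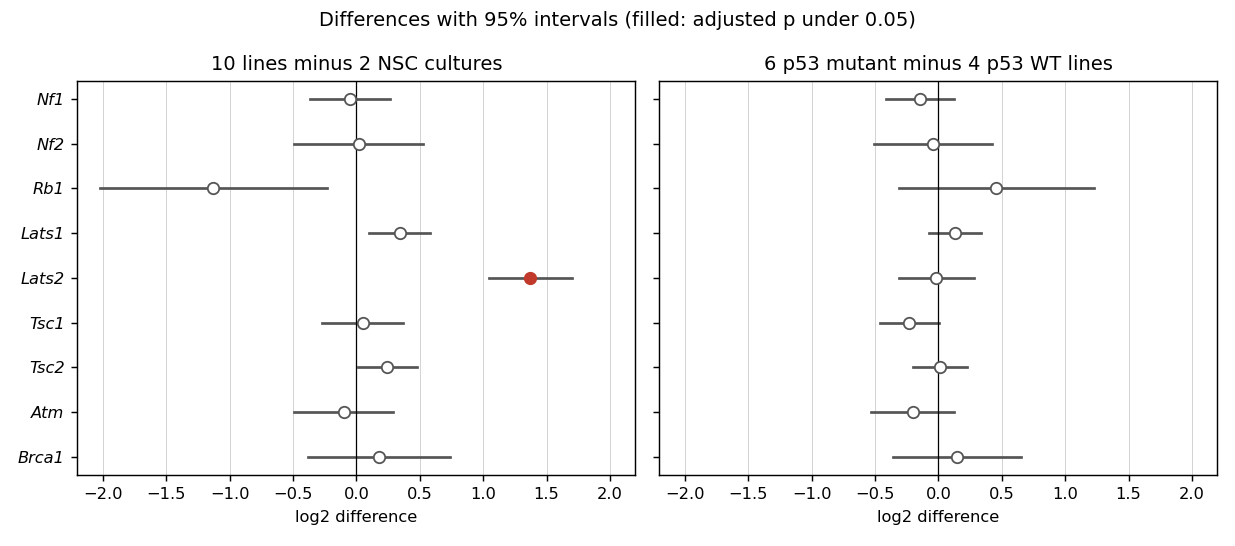
Log2 difference (x axis) of each suppressor gene with its 95% interval, for the 10 lines minus the 2 NSC cultures (left) and for the 6 p53 mutant minus the 4 p53 WT lines (right). Lats2 at 1.37 on the left is the 1 filled point (adjusted p under 0.05), and all 9 intervals on the right include 0.

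The other genes of these pathways were described by 7 lists, to be read beside the 15.0% of all genes that passed in this comparison (6.79% higher and 8.22% lower); differences between lists were not tested. Of 24 measured Hippo core genes and regulators, 8 were higher and 3 lower in the lines than in NSCs, with a median difference of 0.37 against -0.01 for all genes. *Ajuba*, a LIM protein that binds LATS kinases, was higher by 2.11 (SE 0.20, adjusted p = 9.2e-06), *Wwc2*, a relative of the LATS activator KIBRA, by 1.88 (SE 0.18, adjusted p = 9.2e-06) and the DNA-binding partner of YAP *Tead4* by 1.14 (SE 0.20, adjusted p = 0.0014, limma throughout). *Limd1*, another LIM protein that binds LATS, was lower, at -1.11 (SE 0.16, adjusted p = 0.00031). The coactivators themselves did not pass: *Yap1* differed by 0.41 and *Wwtr1*, which encodes TAZ, by 0.59, both with an adjusted p of 0.075 (limma).

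Of 20 genes known as YAP and TEAD targets, 12 were higher and 1 lower, with a median of 1.60. *Myof*, a membrane repair gene, rose from 5.91 to 11.02, a difference of 5.11 (SE 0.16, adjusted p = 7.7e-11). The matricellular gene *Ccn1* rose by 4.39 (SE 0.24, adjusted p = 3.5e-08), *Dock5* by 3.28 (SE 0.38, adjusted p = 5e-05) and the muscle ankyrin repeat gene *Ankrd1* by 3.57 (SE 1.00, adjusted p = 0.028, limma). *Fjx1* was the 1 that fell, at -2.29. The lists share *Ajuba* and *Amotl2*, both higher, and *Ptpn14*. *Axl*, *Ccn1* and other targets are also expressed by fibroblasts, and the log2 summed level of 8 fibroblast markers was 11.37 to 13.56 in the lines against 10.92 and 11.09 in NSCs, with 3 of 8 markers higher and 0 lower. That of 8 neural stem cell markers was 9.996 to 11.40 against 13.58 and 13.62, with 0 higher and 4 lower. The part of either marker list in the *Lats2* difference and in the target counts was not tested.

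Of 17 Ras GTPases and RAS-GAPs, the neighbours of *Nf1*, 3 were higher and 3 lower. *Rras2* was higher by 2.08 (SE 0.31, adjusted p = 0.00046), and the RAS-GAP *Rasa3* was lower, at -1.23 (SE 0.21, adjusted p = 0.001, limma). Of 23 genes of the TSC and mTORC1 pathway, 5 were higher and 2 lower, among them *Rictor*, the mTORC2 scaffold, at 1.51 (SE 0.42, adjusted p = 0.028) and the Rag GTPases *Rragb* at -1.61 (SE 0.46, adjusted p = 0.032) and *Rragd* at -1.45 (SE 0.29, adjusted p = 0.0039, limma). Of 19 RB and E2F genes 1 was higher (*E2f4*, 0.76) and 1 lower (*E2f6*, -1.34), of 22 genes of the ATM and BRCA1 response 1 was higher (*Fanca*, 0.55) and 0 lower, and of 23 proliferation genes 1 was higher (*Tyms*, 0.48) and 1 lower (*Rrm2*, -0.98). The medians of the last 3 lists were 0.03, -0.04 and 0.05.

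Without the first or the second NSC culture, 1416 and 1402 genes passed instead of 2992, and the counts in these lists fell. The Hippo list then had 4 higher and 1 lower without the first, and 4 higher and 3 lower without the second. The target list had 7 higher and 0 lower, and 6 higher and 0 lower. *Ajuba*, *Wwc2*, *Tead4*, *Limd1*, *Myof*, *Ccn1*, *Dock5*, *Rras2* and *Rasa3* passed with any 1 of the 12 arrays left out, and so did *Lats2*. With 1 NSC culture left, that culture is assumed to vary as the lines do. The calls of *Ankrd1*, *Rragb*, *Rictor*, *E2f6*, *Rrm2* and *Tyms* ended without either NSC culture, that of *Rragd* without the first, and those of *E2f4* and *Fanca* without the second. Between mutant and WT lines 0 genes of any of these 7 lists passed.

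**Figure D3:**
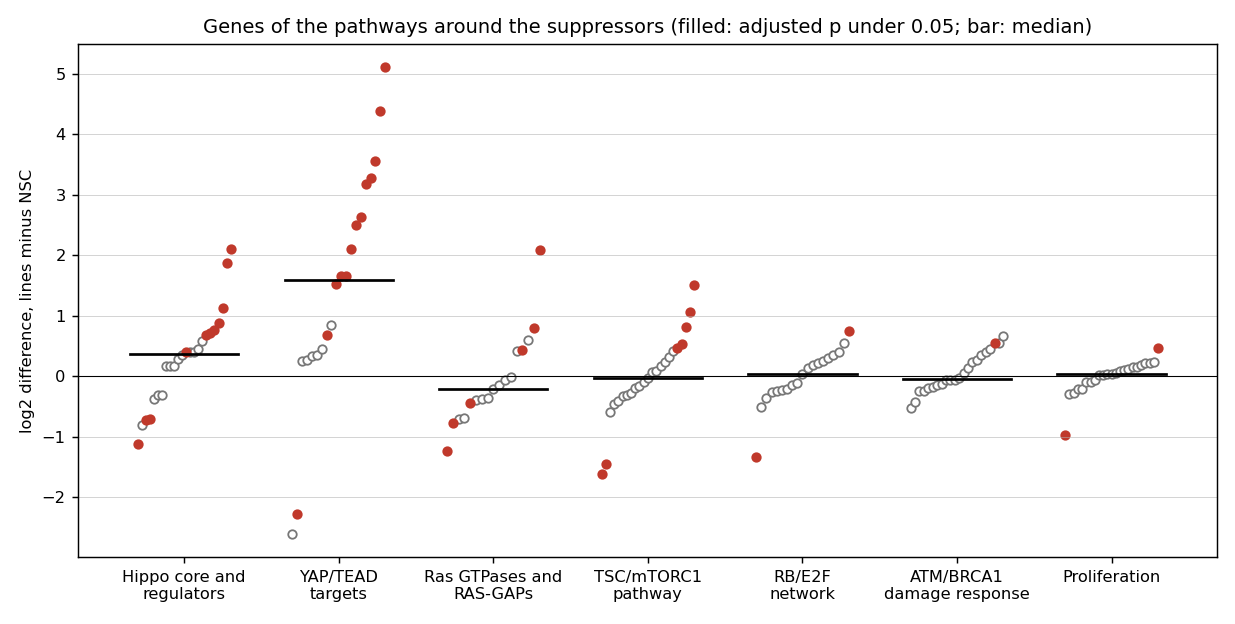
Log2 difference between the 10 lines and the 2 NSC cultures (y axis) for the measured genes of 7 pathway lists (x axis), 1 point per gene, filled where the adjusted p was under 0.05, with the list's median as a bar. The targets of YAP and TEAD reach 5.11 (Myof) around a median of 1.60, and the medians of the RB, ATM and proliferation lists lie between -0.04 and 0.05.

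Among the 10 lines no relation between suppressors passed, and 10 points cannot show that they are unrelated. Of 36 pairs, 12 had a Pearson r above 0, and of 38 relations (these and 2 with pathway lists) 0 passed an adjusted p of 0.05 by permutation of the lines, while 7 had an unadjusted p under 0.05. The highest r was between *Brca1* and the mean of the proliferation genes, 0.74 (n = 10, permutation p = 0.018, adjusted p = 0.26) with a Spearman rho of 0.70 (permutation p = 0.031, adjusted p = 0.28). It was 0.56 without the 2 lines farthest from the median of *Brca1* and 0.83 within the 6 mutant lines. *Nf1* and *Atm* gave 0.72 (permutation p = 0.019, adjusted p = 0.26), 0.67 without the 2 farthest lines and 0.67 within the mutant lines. The r of *Nf2* and *Rb1*, 0.64, turned to -0.27 without the 2 farthest lines, and so rested on them. *Lats2* and the mean of the YAP and TEAD targets gave 0.52 (permutation p = 0.12).

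The genes whose pattern over the 10 lines was most like that of a suppressor, by Pearson r with provisional symbols left out, were *Rasgrf1* (0.90) and *Rab11a* (0.89) for *Lats2*, *Ccdc141* (0.94) and *Vps54* (0.91) for *Rb1*, *Ilrun* (0.96) and *Blvra* (0.95) for *Nf2* and *Nudt12* (0.93) and *Ifi207* (0.92) for *Lats1*. They were *Plcg1* (0.95) and *Bptf* (0.93) for *Nf1*, *Fubp3* (0.94) and *Ptpn23* (0.92) for *Tsc1* and *Foxf2* (0.92) and *Abhd16a* (0.88) for *Tsc2*. For *Atm* they were *Itgb1bp2* (0.97) and *Prr11* (0.91), and for *Brca1* *Arrb2* (0.97) and *Psmc3ip* (0.94). These are the highest of many r values over 10 points and are given as a description.

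In the tumors 8 of the 9 suppressors were higher than in SubQ and *Rb1* did not pass. In this comparison of 12 tumors with 3 SubQ samples 76.5% of all genes passed (limma; 30.7% higher and 45.8% lower), and groups did not overlap for 5 of the 9 genes against 52.5% of all genes. The 9 had a median difference of 1.19, while that of all genes was -0.28. Of the 9968 genes above the median level, which include these 9, 7153 passed and 5907 were higher when fitted alone. The SubQ arrays had the narrower spread over genes (SD 0.87 to 1.02 against 1.63 to 1.79). Its part in these differences was not tested. The 3 tumors of a line enter as separate samples, and with the 3 averaged to 1 value per line the same number of genes, 8, passed.

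*Nf1*, the RAS-GAP, read 6.76, 5.69 and 6.67 in the SubQ samples. In the tumors it read 8.72, 8.62 and 8.80 for line 1, 9.07, 8.82 and 8.96 for line 31, 8.96, 9.05 and 9.25 for line 59 and 9.37, 9.47 and 9.20 for line 123. The groups did not overlap, and the means of 9.02 ± 0.26 (SD, n = 12) and 6.37 ± 0.59 (SD, n = 3) differed by 2.65 (SE 0.21, adjusted p = 9.4e-09, limma), a 6.27-fold difference. Over 30 alternative fits the difference ranged from 1.89 to 2.97, so its size depends on the processing, and it passed in all 30.

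In the Hippo group *Lats1* was higher by 1.98 (SE 0.20, adjusted p = 1.3e-07), from 6.28 to 7.32 in SubQ to 8.24 to 9.14 in the tumors, and by 0.93 after quantile normalization (adjusted p = 0.0047, limma). *Nf2* was higher by 1.19 (SE 0.19, adjusted p = 1.8e-05), and *Lats2* by 0.74 (SE 0.16, adjusted p = 4.7e-04, limma). The ranges of *Lats2* overlapped, at 5.40 to 5.93 in SubQ and 5.88 to 6.79 in tumors, and line 1 tumors alone did not pass (0.62, adjusted p = 0.070). *Nf2* and *Lats1* did not overlap.

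*Atm* was higher by 1.45 (SE 0.20, adjusted p = 3.9e-06) and *Tsc2* by 1.12 (SE 0.30, adjusted p = 0.0023), both without overlap; *Tsc2* was 1.74 for line 59 alone, which also passed. *Tsc1* was higher by 0.77 (SE 0.18, adjusted p = 7.5e-04), but not for line 1 alone (0.53, adjusted p = 0.099) or line 31 alone (0.65, adjusted p = 0.071, limma). *Brca1* was higher by 1.34 (SE 0.29, adjusted p = 4.8e-04), from a SubQ mean of 5.04 that lay under the 25th percentile of SubQ gene means, and not for line 31 alone (0.62, adjusted p = 0.10, limma).

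*Rb1* read 6.36, 7.31 and 7.98 in the SubQ samples and 7.11 to 8.55 in the tumors, with overlap. Its difference was 0.63 (SE 0.30, adjusted p = 0.062, limma). It was 1.01 without the third SubQ sample (adjusted p = 0.0082) and 0.20 without the first, and after quantile normalization it was -0.52 (adjusted p = 0.21), so no direction is given.

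For the other genes of the pathways, the counts are to be read beside 30.7% of all genes higher and 45.8% lower in the tumors. Among the 9968 genes above the median level 5907 were higher, and the part of the narrower SubQ spread was not tested here either. The counts of higher and lower genes were 14 and 3 of 24 for the Hippo list, 10 and 2 of 20 for the targets, 12 and 2 of 17 for Ras, 11 and 2 of 23 for TSC and mTORC1, 14 and 3 of 19 for RB and E2F, 16 and 2 of 22 for ATM and BRCA1 and 21 and 0 of 23 for proliferation. The medians lay between 0.45 (TSC and mTORC1) and 1.40 (proliferation). Examples are *Ccn1* at 3.39 (SE 0.31), *Mob1a*, the LATS cofactor, at 2.36 (SE 0.25), *Spred1*, which recruits neurofibromin to the membrane, at 2.50 (SE 0.17), *Rheb*, the GTPase that TSC turns off, at 2.24 (SE 0.26), and the checkpoint kinase gene *Chek1* at 2.18 (SE 0.25). With any 1 of the 15 arrays left out these 5 passed.

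Cell type markers moved with this comparison. All 8 macrophage markers were higher in tumors, with a log2 summed level of 11.97 to 13.19 against 9.05 to 9.63 in SubQ, and 7 of 8 fibroblast markers were higher. Of 6 adipocyte markers 5 were lower, of 8 skeletal muscle markers 6 and of 7 keratinocyte markers 4. Of 8 neural stem cell markers 5 were lower and 1 higher, and of 6 astrocyte markers 4 were lower. Of 7 endothelial markers 3 were higher. These counts stand beside 30.7% of all genes higher and 45.8% lower. The part of these cells in the differences of the suppressors was not tested.

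**Figure D4:**
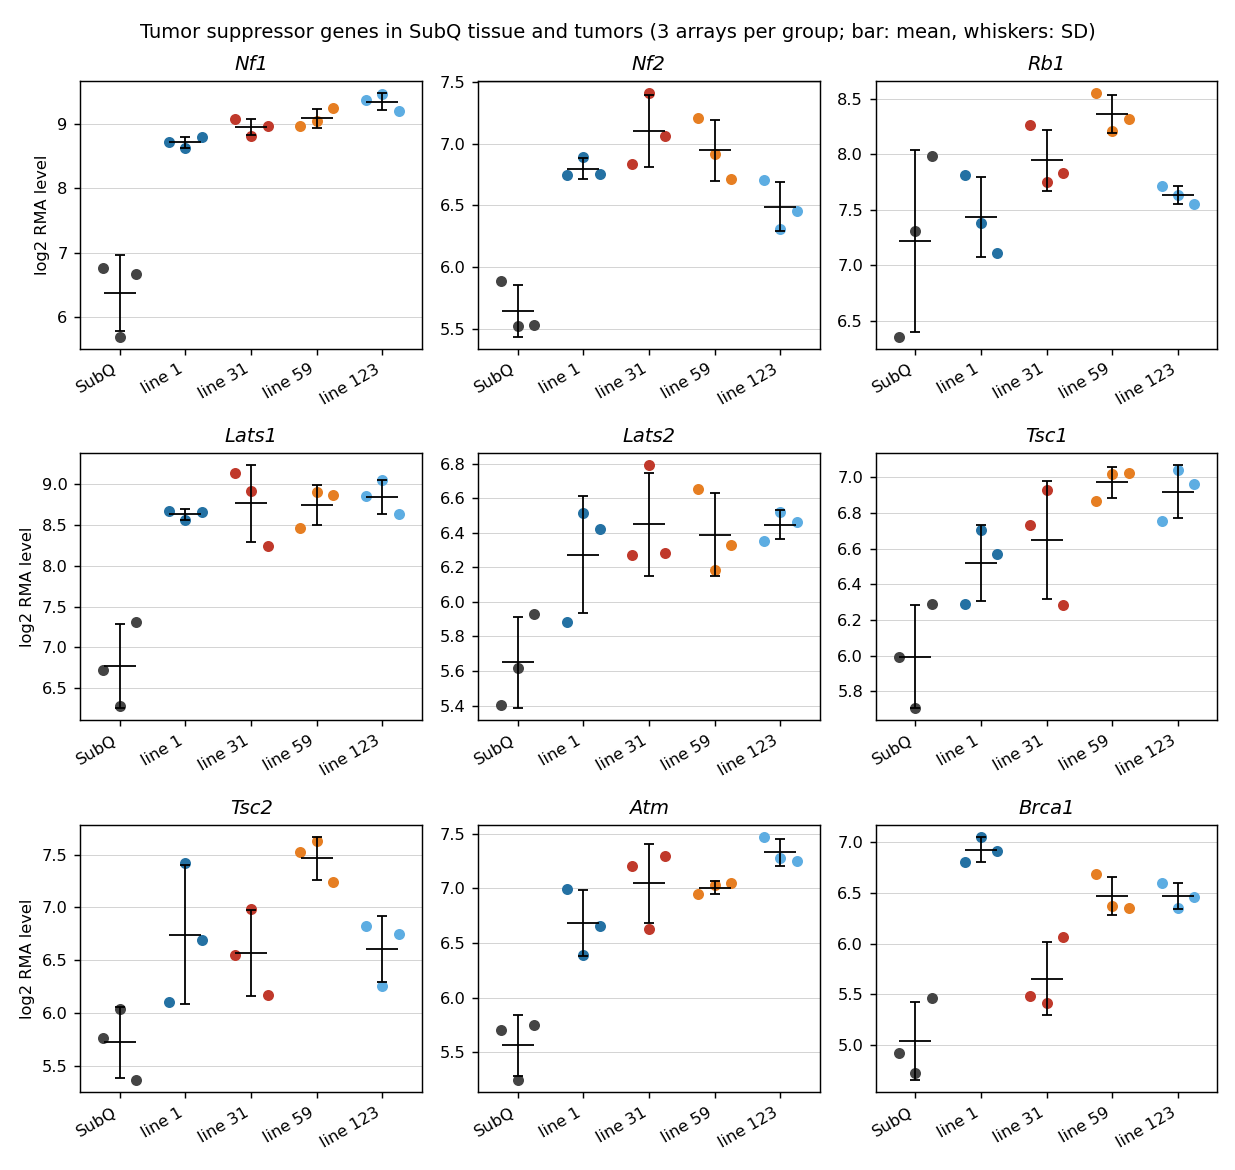
Log2 RMA level (y axis, a separate scale for each gene) of the 9 suppressor genes in 3 SubQ samples and in 3 tumors each of lines 1, 31, 59 and 123, with 1 point per array, the mean as a bar and the SD as whiskers. All tumors lie above SubQ for Nf1, Nf2, Lats1, Tsc2 and Atm, and for Brca1 the 3 tumors of line 31 lie below and the 3 of line 1 above the other tumors.

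Among the tumors *Brca1* and *Rb1* differed between the 4 lines. By limma's moderated F test 2 of the 9 genes passed, where 5.07% of all genes did. The median range of line means was 0.63 for the 9 genes and 0.34 for all genes.

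*Brca1* read 6.80, 7.05 and 6.92 in line 1 tumors, 5.48, 5.41 and 6.06 in line 31 tumors, 6.69, 6.38 and 6.35 in line 59 tumors and 6.60, 6.35 and 6.46 in line 123 tumors. Line 1 lay above all other tumors and line 31 below all others, while lines 59 and 123 overlapped. The line means spanned 1.27 (adjusted p of F = 0.0069, limma), a 2.41-fold range, and this passed in 20 of 20 alternative fits. Line 1 exceeded the mean of the other lines by 0.73 (SE 0.14, adjusted p = 0.014), in a comparison where 4.62% of genes passed and 5.11% did not overlap, but not without the second (0.66, adjusted p = 0.089) or the third (0.73, adjusted p = 0.074) of its tumors. Line 31 lay at -0.97 from the others (SE 0.14, adjusted p = 0.0086), where 1.39% of genes passed and 2.33% did not overlap, but not without the first of its tumors (-0.88, adjusted p = 0.087). Between line 1 and line 31 the difference was 1.27 (SE 0.18, adjusted p = 0.0028, limma), where 3.21% of genes passed.

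The mean level of the proliferation genes was 7.89 in line 1 tumors, 7.77 in line 59, 7.54 in line 123 and 7.25 in line 31. The replication helicase gene *Mcm4* was higher in line 1 by 1.02 (SE 0.19, adjusted p = 0.0093), a call that ended without the third of its tumors, and 1 of the 23 proliferation genes passed the F test. The mean macrophage marker level was 8.93 in line 31 tumors, 8.63 in line 59, 8.44 in line 123 and 8.22 in line 1. Line 31 (8.70 to 9.15) and line 59 (8.24 to 9.17) overlapped. Line 1 had the highest mean level of endothelial markers, 7.54, with 6.37, 6.53 and 6.35 in lines 31, 59 and 123. It was also highest for fibroblast markers, at 9.01, with 8.54, 8.38 and 8.49 in these lines. The part of any of these lists in the *Brca1* difference was not tested.

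*Rb1* read 7.82, 7.38 and 7.11 in line 1 tumors, 8.26, 7.75 and 7.83 in line 31, 8.55, 8.21 and 8.32 in line 59 and 7.71, 7.63 and 7.56 in line 123. The line 59 tumors were the highest group but overlapped line 31. The line means spanned 0.93 (adjusted p of F = 0.044, limma). This passed in 8 of 20 alternative fits and ended without the second or the third tumor of line 1 or without any 1 tumor of line 59 or line 123 (adjusted p = 0.065 to 0.13). The pair of line 1 and line 59 differed by -0.93 (SE 0.19, adjusted p = 0.020), where 3.28% of genes passed. Line 59 lay 0.69 above the mean of the others (SE 0.16, adjusted p = 0.058, limma), where 1.17% passed.

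*Nf1* was lowest in line 1 and highest in line 123, at 8.71 ± 0.09, 8.95 ± 0.13, 9.09 ± 0.15 and 9.35 ± 0.13 (SD, n = 3 each) for lines 1, 31, 59 and 123. Line 1 lay below all other tumors, at -0.41 (SE 0.11, adjusted p = 0.046), a call held in 6 of 21 alternative fits. It ended without any 1 of its own tumors (adjusted p = 0.10, 0.19 and 0.12 in order), without the first of line 31, without the second or the third of line 59 and without any 1 tumor of line 123. The F test gave an adjusted p of 0.054, and line 1 against line 123 gave -0.63 (SE 0.13, adjusted p = 0.023, limma), where 3.09% of genes passed. Neighbouring lines in this order overlapped apart from line 1.

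The remaining 6 genes did not pass the F test. *Nf2* read 6.71, 6.31 and 6.45 in line 123 tumors, below all others, with a difference of -0.46 (SE 0.14, adjusted p = 0.17), where 0.848% of genes passed and 2.24% did not overlap. *Tsc2* read 7.53, 7.63 and 7.24 in line 59 tumors, 0.83 above the mean of the others (SE 0.25, adjusted p = 0.15), with 1 tumor of line 1 at 7.42 among them. *Atm* spanned 0.65 (adjusted p = 0.20), *Tsc1* 0.45 (adjusted p = 0.28), and *Lats1* and *Lats2* 0.22 and 0.18 (adjusted p = 0.90 each, limma).

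The F test passed for 5 of 20 YAP and TEAD targets and 2 of 19 RB and E2F genes (*Arid4a*, an RB-binding protein, and *Rbl2*, a relative of RB). It passed for 1 gene in each of the other 5 pathway and proliferation lists of 17 to 24, beside 5.07% of all genes. *Ptpn14*, the 1 Hippo gene, is also among the 5 targets. With 1 of the 12 tumors left out, the F calls of *Ankrd1* and *Myof* always held. Those of *Ptpn14* and *Dock5* ended for 4 tumors each, that of *Nt5e* for 9, that of *Rbl2* for 8 and that of *Arid4a* for 1. *Ankrd1* spanned 2.70 (adjusted p = 0.0092) and *Myof* 1.13 (adjusted p = 0.004), both lowest in line 1 by the comparison with the other lines, at -2.26 (SE 0.33, adjusted p = 0.0026) and -0.92 (SE 0.13, adjusted p = 0.0016). *Dock5* was higher in line 1 by 0.82 (SE 0.17, adjusted p = 0.016, limma), a call that ended without the second or the third of its tumors. *Lats1* and *Lats2*, at 8.63 ± 0.06 and 6.27 ± 0.34 (SD, n = 3) in line 1, did not pass in this comparison. They differed from the other lines by -0.16 (95% interval -0.54 to 0.22) and -0.16 (95% interval -0.51 to 0.195), so equal levels are not shown.

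Over the 12 tumors the genes most like *Brca1* by Pearson r were *Epb41l3* (0.96) and *Cdca2* (0.95), the second a mitotic gene, and those most like *Rb1* were *Pot1b* (0.96) and *Kat2b* (0.94). They were *Phka2* (0.92) after *Mir181b-2* (0.95) for *Nf1*, *Mgat5* (0.94) and *Arpc1b* (0.90) for *Lats2* and *Pdcd11* (0.96) and *Wbp1l* (0.96) for *Tsc2*. *Nf2* was followed by *Atmin* (0.89) and *Abcg1* (0.87), *Lats1* by *Fam53a* (0.91) and *Bclaf1* (0.90), *Tsc1* by *Kansl1* (0.93) and *Vps53* (0.93) and *Atm* by *Xrn1* (0.92) and *Vwa5a* (0.92). Tumors of 1 line share that line, so these are descriptions.

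Lines 31, 59 and 123 were measured in culture and as tumors. Of the 9 genes, 1 (*Rb1*) had all 9 tumors above their culture and 3 (*Brca1*, *Lats2* and *Atm*) had all 9 below. These counts are to be read beside 15.7% and 23.9% of all genes, and are not a trait of the suppressors. With 1 array per line in culture there was no test, and these 12 arrays were first brought to a joint distribution by quantile normalization. *Rb1* read 7.51 in the line 31 culture and 0.88 more in its tumors on average, 8.13 and 0.63 more for line 59, and 6.40 and 1.65 more for line 123. All 9 tumors lay above their culture, as for 15.7% of all genes. The line 123 culture, the lowest for *Rb1*, also gave the largest difference, which is taken from that same reading and so rises as the reading falls.

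*Brca1* differed by -1.29 in line 31, -0.72 in line 59 and -0.56 in line 123, *Lats2* by -0.42, -0.52 and -0.36, and *Atm* by -0.36, -0.35 and -0.21. All 9 tumors lay below their culture for these 3 genes, as for 23.9% of all genes. *Brca1* had the largest differences of the 3 genes in each line, and line 31 stood lowest in the tumors, at 5.75 to 6.55, although its culture (7.35) was close to those of lines 59 (7.54) and 123 (7.40). *Nf1*, *Nf2*, *Lats1*, *Tsc1* and *Tsc2* had tumors on both sides of their cultures over the 9 tumors. On the deposited scale, where 92.8% of all genes had all 9 tumors below and 1.2% all above, 8 and 0 of the 9 genes did, and *Rb1* differed by -0.83, -0.96 and 0.01, so the higher *Rb1* in tumors rests on the joint normalization. On that scale the log2 summed level of the 8 macrophage markers was 9.36 to 9.77 in the 10 lines against 11.97 to 13.19 in the tumors, and the part of host cells in these differences was not tested.

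**Figure D5:**
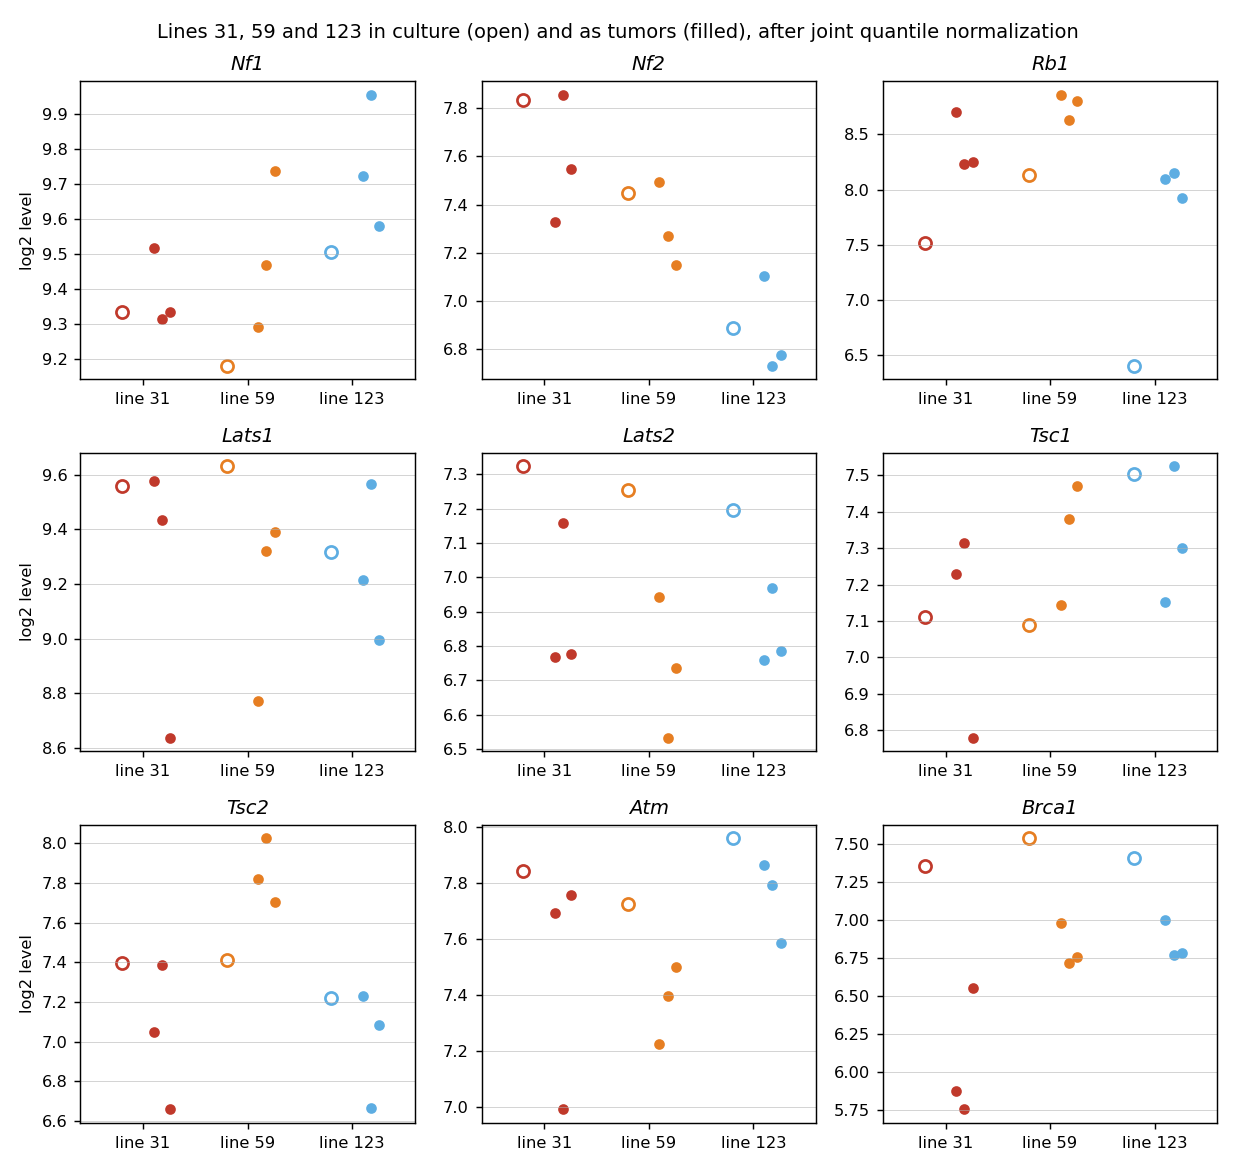
Log2 level after joint quantile normalization (y axis, a separate scale for each gene) of the 9 suppressor genes in lines 31, 59 and 123, with the 1 culture as an open point and the 3 tumors as filled points. All filled points lie above the open one of their line for Rb1 and below it for Brca1, Lats2 and Atm.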

How the data were processed

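The values are log2 expression levels that the authors deposited for 34760 probe sets, made with Affymetrix Expression Console and RMA, per the submitters' processing notes; versions and background settings are not given in the sources used here. Of the probe sets, 21640 name 1 gene in the platform annotation, 1321 several and 11799 none. Each gene was read from its probe set with the highest mean over the 27 arrays, leaving 19937 genes; array number, not read depth, limits the precision. The probe sets' coordinates are not given; promoter positions are RefSeq's on GRCm38.p6.

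limma 3.58.1 (R 4.3.3; lmFit and eBayes) was fitted on all genes within the cell arrays or within the tissue arrays, with Benjamini-Hochberg adjustment over all genes and a threshold of 0.05; intervals are 95%. Relations between genes used 100000 permutations. Tested on simulated data with 200 changed genes, the fits called 80% (lines against NSCs), 85% (mutant against WT), 68% (tumors against SubQ) and 64% (between tumor lines) of genes changed by 1 log2 unit. Simulated samples were independent, and each gene had the same SD in every group. These shares therefore do not carry over to tumors that share a line or to SubQ arrays of another spread.

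The 9 genes and the lists were chosen with earlier results of these data known. Named genes are the 9, up to 4 passing genes of each list with the largest difference (others named for their role or after their values were seen), and 2 most alike genes per member. Genes with provisional symbols were left out of the search for alike genes. Alternatives were the probe set rule, a filter on low levels, eBayes settings, median centring, quantile normalization, a 2-fold minimum, an adjusted p of 0.01, all arrays in 1 fit, blocks and leaving out each array. Deviations of same-numbered samples from their group means had r of -0.28 to 0.34 over genes. Samples of unlike number were not compared, so pairing by number is neither shown nor excluded.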

Additional observations from a re-analysis of the deposited data

Results flagged for a closer look

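*Nf2* in line 123 read 8.15, far from the other 3 WT lines at 9.10 to 9.25 by Dixon's criterion, 1 such sample in 27 tests, where chance gives about 1 in 20. Line 123 was also the lowest of the 10 lines for *Rb1* (7.63), and its tumors were the lowest for *Nf2* among the tumors.

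The difference between tumors and SubQ varied with the tumor line for *Brca1* (moderated F test over the 4 lines, adjusted p = 0.0069, limma), which was lowest in line 31 in 3 of 3 tumors and highest in line 1 in 3 of 3. It varied for *Rb1* as well (adjusted p = 0.044, limma), with line means spanning 0.93, a call that held in 8 of 20 alternative fits and ended without any 1 of 8 of the 12 tumors.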

How the results depend on the processing

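Of the 9 genes, 1 passed between lines and NSCs. The count was 2 with arrays centred on their medians, 2 for the 6 mutant lines alone, 2 with all 27 arrays in 1 fit and 0 against a 2-fold minimum, and 1 to 2 with 1 array left out. Between tumors and SubQ 8 passed, against 2 with the 2-fold minimum. *Rb1* also passed in 5 of 30 alternatives. These were median centring, leaving out the third SubQ sample, leaving out the second or the third tumor of line 1, and line 59 alone. *Lats2* and *Tsc1* did not pass for line 1 alone, and *Tsc1* and *Brca1* did not for line 31 alone. Between tumor lines 2 passed, against 1 with trend and robust eBayes, with median centring, at an adjusted p of 0.01 or with all 27 arrays, and 1 to 3 with 1 array left out (3 without the third tumor of line 31, where *Nf1* passed narrowly). Mutant against WT lines gave 0 and relations 0 throughout. Tumors against their cultures had 4 genes on 1 side in all 9 tumors, and 8 with the deposited values, where *Nf1* turned to -1.31 (line 59) and -1.43 (line 123), *Rb1* to -0.83 (line 31) and -0.96 (line 59), *Tsc1* to -1.24 and *Tsc2* to -1.08 (both line 59); the deposited cell and tissue arrays differ in scale.

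With the replicate block the counts were 1, 8 and 2. With the block *Lats2* gave 1.44 (adjusted p = 0.0037) and *Rb1* -0.53 between lines and NSCs (adjusted p = 0.18), and *Rb1* passed in tumors of line 1 against the others (adjusted p = 0.029) and of line 59 (adjusted p = 0.022) with it, while *Nf1* in line 1 did not (adjusted p = 0.077). For mutant against WT lines no paired analysis was possible because the groups share no replicate numbers. No member is on a probe set listed with several genes, so that alternative was not run.

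Over all genes, 2992 passed between lines and NSCs, 413 against the 2-fold minimum and 1807 at 0.01. Between tumors and SubQ 15256 passed and 3983 against the 2-fold minimum. Between mutant and WT lines 4 passed, from 0 to 36 over the alternatives, and between tumor lines 1010, with 313 at 0.01 and 469 to 1659 with 1 tumor left out.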
